A study of Mus musculus with 6 samples.

Results

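Genes of the motile cilium and its axoneme were followed through 6 RNA-seq libraries of mouse mPFC. The rule took every gene of the deposited table that GENCODE M21 lists as protein-coding with a symbol starting with *Dnah*, *Dnai*, *Cfap*, *Tekt* or *Rsph*, together with *Foxj1*, *Hydin*, *Ccdc153* and *Tmem212*. It found 63 of the 18254 genes, namely 30 *Cfap*, 15 *Dnah*, 2 *Dnai* (*Dnaic1* and *Dnaic2*), 8 *Rsph* and 4 *Tekt* genes and the 4 single genes. *Cfap99* and *Tekt3* have such symbols but no row in the table used, and were not analysed here. The study compared EGFP-Shank3 transgenic mice (*Shank3* TG), which carry extra *Shank3* tagged with a green fluorescent protein, with their WT littermates. All mice were males of the C57BL/6J background aged 10 to 12 weeks, none had another treatment in the sources used here, and the promoter of the transgene is not given there. Each of the 3 libraries of a genotype (numbered TG-1, TG-2, TG-3 and WT-1, WT-2, WT-3) pooled the tissue of 2 mice, so that a replicate is such a pool. The mPFC was cut from coronal slices after the front 2 mm of the brain with the olfactory bulb had been removed.

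The axoneme is the microtubule skeleton of a cilium. In motile cilia, dynein arms on the outer doublets slide them past each other, and radial spokes and a central pair of microtubules set the beat. In the brain, most motile cilia belong to ependymal cells, which line the ventricles and move cerebrospinal fluid, and to the choroid plexus. Neurons and astrocytes carry a single primary cilium, which lacks dynein arms. Foxj1 and the RFX factors are the known transcriptional regulators of motile cilia genes. A bulk library mixes all of these cells, so that fewer ependymal cells in a sample and less RNA per ependymal cell cannot be told apart.

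The deposited values are normalized counts, the estimated reads of a gene divided by the size factor of its library. Their sum lay between 28363967 and 29447717 per library. *Shank3* (chromosome 15 from 89499623 to 89560261), the gene altered in this line, showed 17470, 19004 and 16310 normalized counts for TG-1, TG-2 and TG-3 and 8374, 8173 and 6791 for WT-1, WT-2 and WT-3, so that every library matched its label. Its log2 fold change was 1.18 (standard error 0.10). The adjusted p of the *Shank3* limma test was 0.0643, or 0.000437 with the replicate number as a block, a pairing taken from these data. Markers of cortical excitatory neurons were abundant in every library, with 102685 to 127170 normalized counts of *Camk2a*. *Ppp1r1b*, a marker of striatal neurons, was present too, at 1859 to 2121. The libraries TG-3 and WT-3 stood apart from the other 4. *Rbfox3*, a neuronal splicing factor, had 13605 and 15068 normalized counts in TG-3 and WT-3 and 7394 to 8295 in the others. Markers of the olfactory bulb were mostly highest in TG-2. *Cdhr1*, a marker of mitral and tufted cells that was chosen after its values were seen, had 720 normalized counts there, 100 in WT-3 and 39.2 to 57.9 in the others.

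Promoter windows from RefSeq (GRCm38.p6, from 250 bases before to 50 bases after an annotated transcription start) were found for 51 of the 63 genes, in 58 windows. A search on both strands looked for the forkhead core TGTTTAC, the RFX half-site GTTGCC and the full X-box, a pair of inverted half-sites that can overlap the half-site matches. The half-site was in 23 of the 58 windows (39.7%) and in 12.5% of all 32851 windows of the same length. Counted by gene, 21 of the 51 genes held it (41.2%), against 14.1% of all 27025 genes with a window. The forkhead core was in 3 of the 58 windows (5.17%) and in 3.65% of all windows, and the full X-box in 1 window (1.72%), that of *Cfap298*, and in 0.451% of all windows. These matches describe the letters only. Of the genes on which the library differences below turn, windows are shown for *Ccdc153* and *Hydin*, which hold a half-site, *Cfap43*, which holds the forkhead core, and *Tmem212*, which holds none of the 3 motifs. Each is written 5′ to 3′ along its gene, and capitals mark the match, which reads as the reverse complement where it lies on the other strand. The windows are chr9:44240427-44240726 (plus strand), chr8:110266727-110267026 (plus strand), chr19:47837312-47837611 (minus strand) and chr3:27896319-27896618 (minus strand).
Ccdc153: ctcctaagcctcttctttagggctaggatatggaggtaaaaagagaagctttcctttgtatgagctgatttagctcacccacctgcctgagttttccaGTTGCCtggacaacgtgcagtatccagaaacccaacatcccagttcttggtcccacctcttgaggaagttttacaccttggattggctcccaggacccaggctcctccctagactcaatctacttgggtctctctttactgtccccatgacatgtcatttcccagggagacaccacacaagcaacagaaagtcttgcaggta
Hydin: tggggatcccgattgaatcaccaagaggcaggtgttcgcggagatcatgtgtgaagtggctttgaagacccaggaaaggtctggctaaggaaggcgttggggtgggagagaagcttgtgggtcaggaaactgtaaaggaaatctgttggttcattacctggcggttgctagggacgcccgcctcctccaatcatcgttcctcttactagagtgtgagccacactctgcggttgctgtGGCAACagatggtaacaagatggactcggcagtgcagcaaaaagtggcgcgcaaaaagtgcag
Cfap43: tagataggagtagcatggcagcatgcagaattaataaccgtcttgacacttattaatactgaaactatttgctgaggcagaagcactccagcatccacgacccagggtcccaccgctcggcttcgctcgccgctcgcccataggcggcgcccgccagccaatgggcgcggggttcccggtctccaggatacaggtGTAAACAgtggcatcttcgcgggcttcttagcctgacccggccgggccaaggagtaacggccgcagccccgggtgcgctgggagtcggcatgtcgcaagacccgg
Tmem212: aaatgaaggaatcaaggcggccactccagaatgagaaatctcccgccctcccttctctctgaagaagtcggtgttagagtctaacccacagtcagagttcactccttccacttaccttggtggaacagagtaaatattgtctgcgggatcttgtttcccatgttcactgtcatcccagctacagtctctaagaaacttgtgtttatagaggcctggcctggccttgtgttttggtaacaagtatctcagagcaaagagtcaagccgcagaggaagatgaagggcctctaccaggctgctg
Counted from the annotated start, the match began at base -152 in the *Ccdc153* window, at -13 in the *Hydin* window and at -55 in the *Cfap43* window.

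The levels of these genes in the mPFC spanned a wide range. Per kilobase of exon, the mean over the 6 libraries ran from 0.354 normalized counts for *Dnah14* to 853 for *Cfap36*, which encodes a binding partner of the small GTPase Arl3. *Cfap298* (326 per kilobase), *Cfap77* (196), *Rsph3a* (175), *Cfap20* (173) and *Cfap97* (167) followed. The regulator *Foxj1* stood at 41.5 per kilobase, *Ccdc153* at 9.03, *Tmem212* at 8.48 and the very long *Hydin* at 1.67. The 4 single genes therefore stood well below the highest of the 63. All other values are compared within a gene, not between genes. A test was made for the 58 genes whose mean reached 5 normalized counts. *Cfap73*, *Cfap97d1*, *Cfap299*, *Rsph14* and *Tekt4* were below this level, with 0 to 10.3 normalized counts in any library.

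The library WT-3 had the most RNA of the ependymal genes. *Ccdc153* (chromosome 9 from 44240676 to 44247306), a marker of ependymal cells, showed 4.62, 5.22 and 10.1 normalized counts for TG-1, TG-2 and TG-3 and 6.54, 13.5 and 70.3 for WT-1, WT-2 and WT-3. WT-3 alone held 77.8% of the WT sum, and the other 5 libraries overlapped between the genotypes. *Tmem212* (chromosome 3 from 27866066 to 27896368), a membrane protein gene and another ependymal marker, had 0.923, 0 and 0 in *Shank3* TG and 1.88, 3.84 and 29.8 in WT. It passed the filter only through WT-3, and 3 of the other 5 libraries were below 1 normalized count. *Foxj1* (chromosome 11 from 116330704 to 116335399) had 77.8, 86.9 and 93.4 in *Shank3* TG and 103, 115 and 177 in WT. The regulator was thus detected well in all 6 libraries, and WT-3 was 1.62 times the mean of WT-1 and WT-2. *Hydin* (chromosome 8 from 110266977 to 110610253), which encodes a giant protein of the central pair, had 23.3, 31.4 and 35.8 in *Shank3* TG and 16.9, 18.3 and 54.5 in WT. Here the other WT libraries were the lowest of all, so that WT held both ends of the range.

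**Figure D1:**
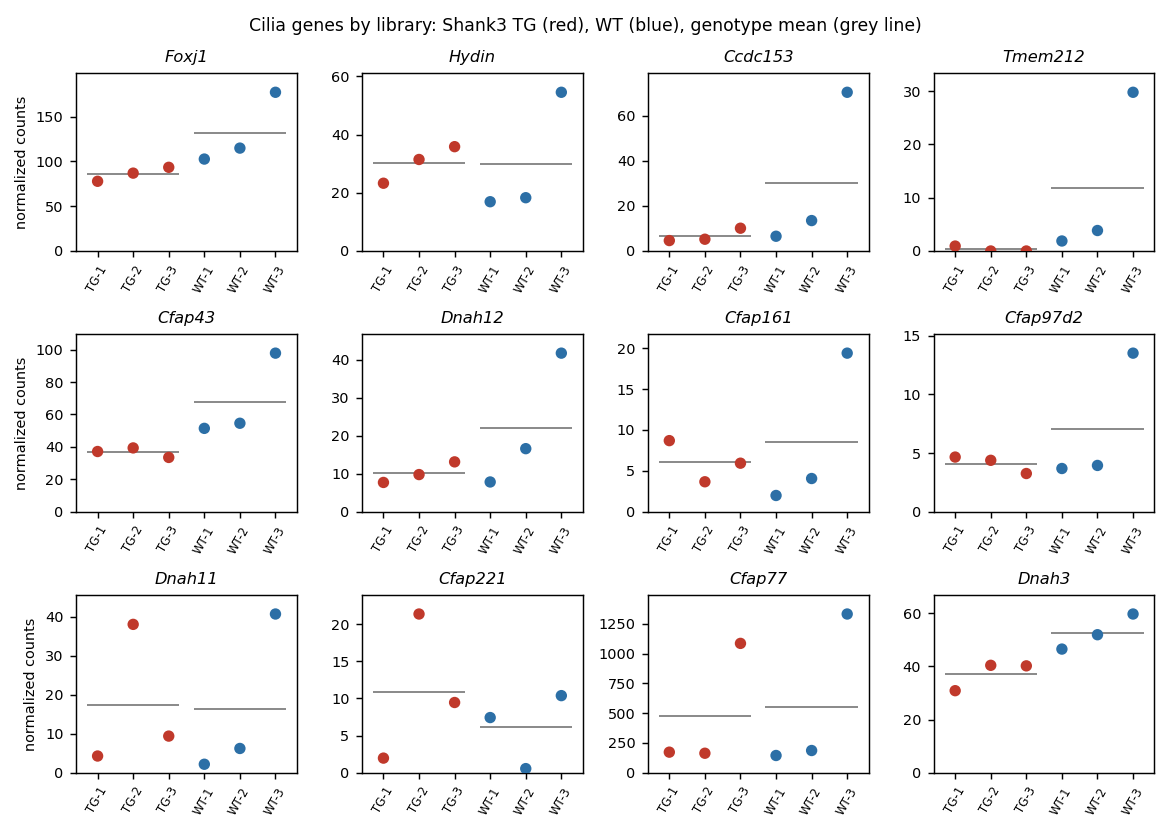
Normalized counts (vertical axis, starting at 0) of 12 cilia genes in each of the 6 libraries (horizontal axis), with *Shank3* TG in red, WT in blue and the mean of each genotype as a grey line. WT-3 is the highest library in the panels of *Foxj1*, *Hydin*, *Ccdc153*, *Tmem212*, *Cfap43*, *Dnah12*, *Cfap161* and *Cfap97d2*, while *Dnah11* is high in TG-2 and WT-3 and *Cfap77* in TG-3 and WT-3.

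Over the tested genes, WT-3 was the highest library for 26 of 58, against 23.9% of all 16714 tested genes. It was the highest by at least 1.5-fold, with 1 added to both values, for 10 of the 58, against 1.61% of all tested genes. These 10 were the 4 single genes, *Cfap43*, *Cfap97d2*, *Cfap126*, *Cfap161*, *Dnah12* and *Rsph4a*, where *Cfap126* and *Rsph4a* are named after their values were seen. Of the 10, *Tmem212*, *Cfap161* and *Cfap97d2* passed the filter only through WT-3. Without any filter, WT-3 was the highest for 29 of the 63 genes, against 23.7% of all 18254 genes. The count was also split by level. With a mean under 50 normalized counts, WT-3 was the highest for 13 of 22 cilia genes, against 29.1% of all tested genes at that level. With a mean of 50 or more it was the highest for 13 of 36, against 22.7%. The 1.5-fold count was 7 of the 22, against 6.87% of all tested genes at the lower level, and 3 of the 36, against 0.334% at the higher level. The 7 include *Tmem212*, *Cfap161* and *Cfap97d2*, which give no support to the count because WT-3 alone brought them in.

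Read as samples of ependymal tissue, the other 5 libraries differed less. TG-1 was the highest library for 4 of the 58 genes (12.7% of all tested genes). TG-2 was the highest for 7 (12.8%), TG-3 for 5 (17.0%), WT-1 for 8 (15.3%) and WT-2 for 8 (18.3%). Each gene was also centred on its mean log2(normalized count + 1) over the 6 libraries. The median of the 58 centred values was -0.09 in TG-1, -0.07 in TG-2, -0.0024 in TG-3, -0.05 in WT-1, -0.01 in WT-2 and 0.17 in WT-3, whereas the median of all tested genes lay between -0.0003 and 0.0030. WT-3 was also the only library in which none of the 63 genes was under 3 normalized counts, the floor used here, while 2 to 7 genes were under it in each of the others. Of all 18254 genes, 5.69% were under the floor in WT-3 and 5.20% to 6.62% in the other libraries, and WT-3 had the most genes at 0 (323, against 177 to 292). A value of 0 occurred in 1 gene each in TG-1, TG-2 and TG-3 and in none of the WT libraries. The sum over the 63 genes, 10601 to 13720 normalized counts, is led by *Cfap36* and is not a reading of ependymal cells.

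**Figure D2:**
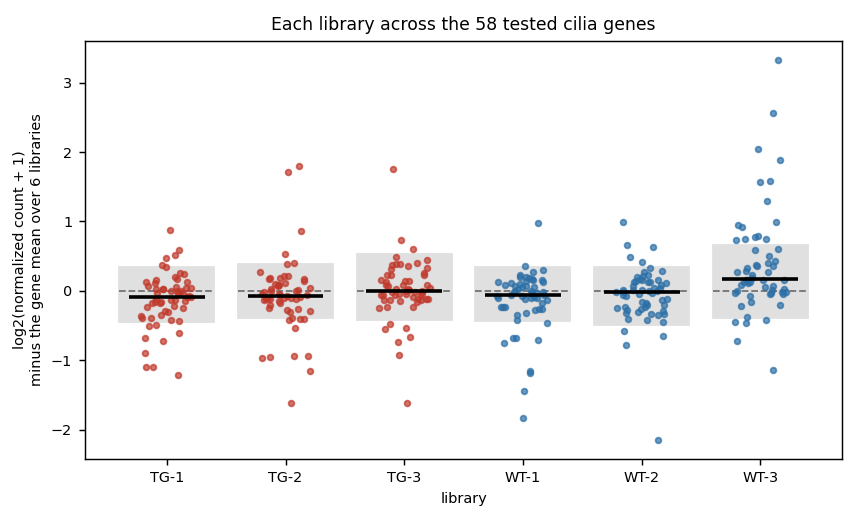
Centred log2 values (vertical axis: log2(normalized count + 1) minus the mean of the gene over 6 libraries) of the 58 tested cilia genes in each library (horizontal axis). Points are genes (*Shank3* TG red, WT blue), black bars their medians, grey boxes the range from the 5th to the 95th percentile of all tested genes and dashed lines the medians of those genes. The black bar of WT-3 lies at 0.17 and the other bars lie between -0.09 and 0, and the highest points of all are in WT-3.

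The dynein heavy chains, the motors of the arms, did not share one pattern across the libraries. *Dnah12*, an inner arm heavy chain (chromosome 14 from 26693274 to 26891703), followed the ependymal markers, with normalized counts of 7.74, 9.81 and 13.2 over the *Shank3* TG libraries and 7.87, 16.6 and 41.8 over the WT libraries. Its WT-3 value was 3.23 times the mean of WT-1 and WT-2. *Dnah11*, an outer arm heavy chain (chromosome 12 from 117877982 to 118199043), had 4.28, 38.0 and 9.39 in *Shank3* TG and 2.17, 6.22 and 40.7 in WT. It was thus high in 1 library of each genotype, TG-2 and WT-3. TG-2 was the highest library for 10 of the 14 tested olfactory bulb and neuroblast genes and WT-3 for 3 (12.8% and 23.9% of all tested genes). *Scgn* of this list, named after its values were seen, was high in TG-2 but low in WT-3. The part of olfactory bulb tissue in the *Dnah11* values was not tested. *Dnah1*, an inner arm heavy chain, had 320, 328 and 325 in *Shank3* TG and 319, 309 and 318 in WT. These values were close together, WT-3 included.

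*Dnah17*, an outer arm heavy chain best known from sperm, showed normalized counts of 86.6, 89.5 and 116 over the *Shank3* TG libraries and 127, 126 and 123 over the WT libraries. Its WT libraries were close together and WT-3 was the lowest of them, so *Dnah17* did not share the pattern of the ependymal markers. *Dnah3*, of the inner arms, had 30.9, 40.4 and 40.2 in *Shank3* TG and 46.5, 51.9 and 59.7 in WT, and 10.5% of its exon bases overlap *Lyrm1* on the opposite strand. *Dnah7b* had 122, 209 and 179 against 217, 169 and 245. *Dnah7c* had 252, 232 and 200 against 215, 275 and 159, so that WT-3 was the highest library for one of these near copies and the lowest for the other. Because 38.9% of the 31-base words in the exons of *Dnah7b* and 61.6% of those of *Dnah7c* also occur in the other *Dnah7* genes, the division of reads between them is uncertain. *Dnah10* and *Dnah9*, both named after their values were seen, were highest in TG-2 (106 against 36.1 to 64.7 in the others) and in TG-1 (153 against 76.2 to 102).

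Of the dynein intermediate chains, which hold the outer arm heavy chains together, *Dnaic1* showed normalized counts of 67.0, 86.0 and 85.6 over the *Shank3* TG libraries and 111, 77.6 and 98.2 over the WT libraries. *Dnaic2* had 30.3, 22.7 and 15.8 against 33.1, 26.6 and 41.6. The genotypes overlapped for both. The radial spoke genes were steadier at high levels. *Rsph3a* had 524, 527 and 555 against 500, 540 and 512, and *Rsph3b* 385, 443 and 396 against 459, 346 and 432, with 59.4% of the 31-base words of *Rsph3a* shared with *Rsph3b*. *Rsph10b* had 201, 242 and 188 against 251, 221 and 224, and 10.5% of its exon bases lie in the exons of *Gm42421* on the same strand. In contrast, *Rsph4a*, a gene of the spoke head, had 48.5, 39.0 and 49.9 in *Shank3* TG and 41.3, 54.7 and 90.3 in WT. WT-3 was the highest for *Rsph4a*, *Rsph1* and *Rsph9* of the 7 tested *Rsph* genes, and by at least 1.5-fold for *Rsph4a* alone.

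The tektins, filaments inside the doublet microtubules, did not have WT-3 as their highest library. *Tekt1* showed normalized counts of 15.5, 16.2 and 18.7 over the *Shank3* TG libraries and 19.7, 25.1 and 12.6 over the WT libraries, so that WT-3 was its lowest library. *Tekt2* had 45.3, 53.9 and 57.5 against 42.6, 34.5 and 46.6. *Tekt5* had 108, 145 and 179 against 132, 131 and 167. *Tekt2* and *Tekt5* were highest in TG-3 and *Tekt1* in WT-2.

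Among the *Cfap* genes, *Cfap43* and *Cfap44* encode parts of one complex, which ties an inner dynein arm to the doublet, and their differences between the genotypes had opposite signs. *Cfap43* (chromosome 19 from 47736857 to 47919287) showed normalized counts of 37.2, 39.4 and 33.5 over the *Shank3* TG libraries and 51.5, 54.6 and 97.8 over the WT libraries, without overlap between the genotypes. *Cfap44* had 110, 136 and 96.2 in *Shank3* TG and 55.4, 68.0 and 121 in WT. Both were highest within WT in WT-3, but WT-1 and WT-2 lay below every *Shank3* TG library for *Cfap44* and above them for *Cfap43*. *Cfap161*, a protein of the inside of the doublets, had 8.70, 3.67 and 5.94 against 2.00, 4.07 and 19.4. *Cfap97d2* had 4.67, 4.39 and 3.27 against 3.69, 3.95 and 13.5, so that both of these low genes stood out in WT-3 alone. *Cfap221*, of the central pair, varied without such a pattern, with 1.97, 21.3 and 9.45 against 7.42, 0.553 and 10.4.

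*Cfap77*, *Cfap97* and *Cfap36* were higher in TG-3 and WT-3 than in the other 4 libraries, by very different amounts. *Cfap77* (chromosome 2 from 28926949 to 29055066), which encodes another protein inside the doublets, showed normalized counts of 173, 164 and 1087 over the *Shank3* TG libraries and 145, 187 and 1334 over the WT libraries. Its values were at least 3-fold higher in TG-3 and WT-3 than in each of the other 4 libraries with 1 added to each value, which was the case for 1 of the 58 cilia genes and for 0.341% of all tested genes. Both TG-3 and WT-3 were above the other 4 libraries for 11 of the 58, against 20.3% of all tested genes, so that this order was no more common among the cilia genes. *Cfap97* was one of them, with 741, 727 and 1009 against 769, 661 and 1275, and *Cfap36* another, with 2128, 2162 and 2530 against 1979, 2333 and 2916. *Cfap20*, of the junction between the doublet tubules, ran the other way, with 792, 813 and 698 against 823, 828 and 658, its lowest values being in TG-3 and WT-3. *Cfap77* thus did not separate WT-3 from TG-3 as *Ccdc153* did, with 10.1 normalized counts in TG-3.

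**Figure D3:**
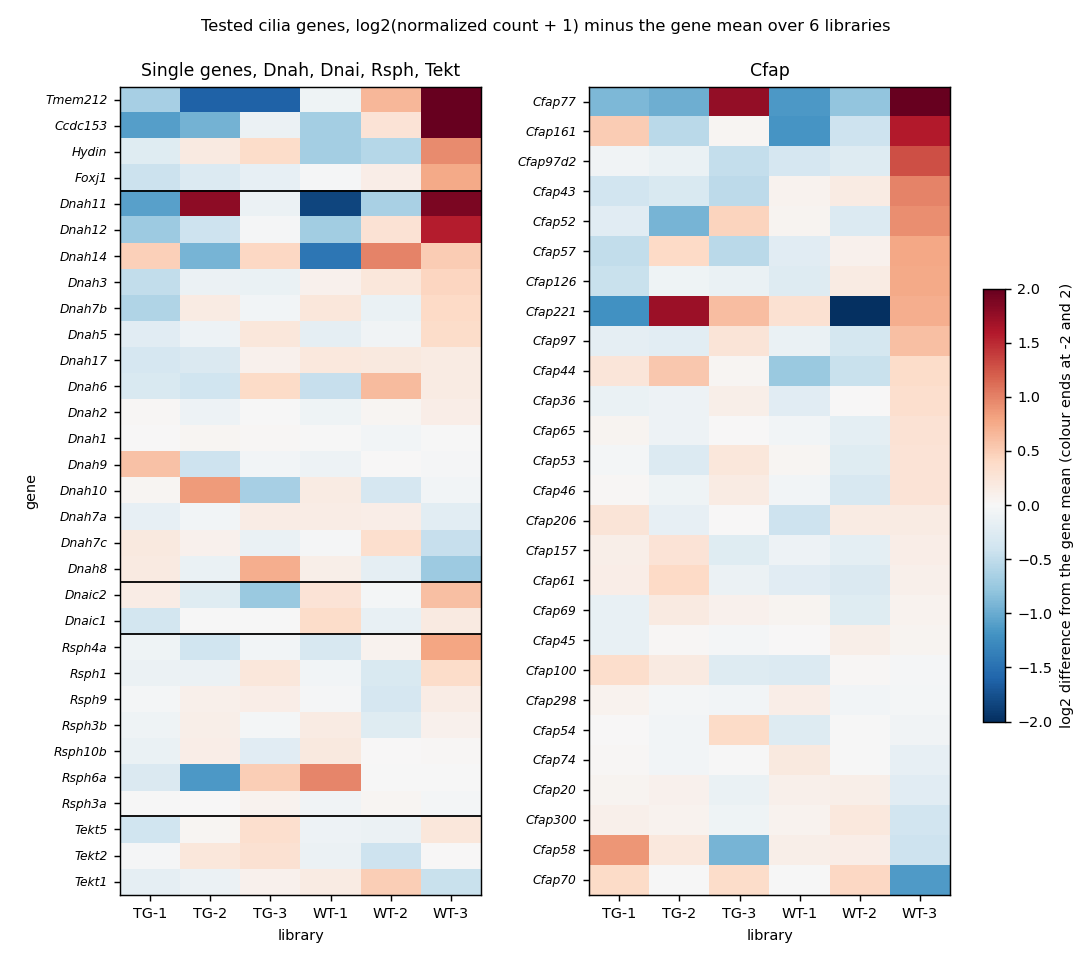
Centred log2 values of the 58 tested cilia genes (rows, grouped by family and ordered by WT-3) in the 6 libraries (columns). Red stands for values above the mean of the gene and blue for values below it, on a log2 scale that ends at -2 and 2. In WT-3 the 4 single genes and both *Dnai* genes are red, as are 19 of 27 *Cfap*, 9 of 15 *Dnah*, 5 of 7 *Rsph* and 2 of 3 *Tekt* genes, and *Tekt1*, *Dnah8*, *Cfap58* and *Cfap70* are among the blue ones. Over all tested genes the median in WT-3 was 0.0011, so that values above and below the gene mean were near balanced there.

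*Shank3* TG and WT were compared with limma on log2(normalized count + 1), over all 16714 tested genes. The adjusted limma p was above 0.05 for all 58 cilia genes and for all other genes (0 of 16714, 0%). The unadjusted limma p was under 0.05 for 5 of the 58, all lower in *Shank3* TG (*Cfap43*, *Dnah3*, *Dnah17*, *Foxj1* and *Tmem212*), against 1.08% of all tested genes in that direction. It was under 0.05 with higher values in *Shank3* TG for 0 of the 58, against 0.933% of all tested genes. *Tmem212* passed the filter only through WT-3, a library of WT. It therefore gives no support to this count or to the count without overlap below. With 1 library left out, the number of cilia genes under 0.05 was 5 without WT-1 (1.20% of all tested genes), 3 without TG-3 (1.18%) or without WT-2 (1.16%), 2 without TG-1 (0.688%) and 1 without TG-2 (1.28%), in each case with lower values in *Shank3* TG. The genes called changed with the library left out. *Cfap43* was called in each of these fits and *Dnah3* in none. Without WT-1, *Ccdc153* and *Dnah12* were called in place of *Dnah3* and *Dnah17*. Without WT-3, the unadjusted limma p was under 0.05 for 1 of 55 cilia genes with lower values in *Shank3* TG (*Cfap43*, against 0.971% of all tested genes) and for 2 with higher values (*Cfap44* and *Hydin*, against 1.53%). With TG-3 also left out, it was under 0.05 for 1 of 56 with lower values (*Dnah17*, against 1.25% of all tested genes) and 2 with higher values (*Cfap44* and *Cfap61*, the latter named after its values were seen, against 1.56%). With all 6 libraries, the same 5 genes were those with every *Shank3* TG library below every WT library (3.12% of all tested genes). *Dnah1* was the only one with every *Shank3* TG library above every WT library (2.91%), by a log2 fold change of 0.04 (standard error 0.09). The 58 genes did not share a direction, with 34 lower and 24 higher in *Shank3* TG, against 51.4% lower and 48.6% higher among all tested genes. Their median log2 fold change was -0.03, where all tested genes had -0.0037. Without WT-3 the median was 0.04, and it was -0.016 without both TG-3 and WT-3.

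The log2 fold change of *Cfap43* was -0.81 (unadjusted limma p 0.0183, standard error 0.27), which was -0.52 without WT-3. The mean of *Foxj1* was 132 ± 40.0 (SD, n = 3) among the WT pools and 86.0 ± 7.84 among the *Shank3* TG pools, a log2 fold change of -0.57 (standard error 0.22) that was -0.34 without WT-3. Its 3 *Shank3* TG libraries also lay below WT-1 and WT-2. The log2 fold change of *Dnah3* was -0.50 (standard error 0.21) and that of *Dnah17* was -0.37 (standard error 0.16), and they were -0.40 and -0.39 without WT-3. These 4 genes kept their direction without WT-3, but the unadjusted limma p was then 0.0881 for *Foxj1*, 0.130 for *Dnah3* and 0.0720 for *Dnah17*, and 0.0453 for *Cfap43*. The adjusted limma p of each was 1 with all libraries. *Tmem212* had a fitted log2 fold change of -2.60 with 1 added, -4.82 with 0.1 added and -1.28 with 5 added, because its *Shank3* TG values lay under the floor, and without WT-3 it fell under the filter.

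Other genes turned on WT-3 more strongly. The log2 fold change of *Ccdc153* was -1.44 (standard error 0.79) with all libraries and -0.52 without WT-3, and that of *Dnah12* was -0.77 (standard error 0.57) and -0.18. Without both TG-3 and WT-3 they were -0.82 and -0.36. *Hydin* had 0.20 (standard error 0.45) and 0.72, and *Cfap44* had 0.55 (standard error 0.29) and 0.87. *Cfap77*, with -0.08 (standard error 0.97), turned to 0.93 when WT-3 alone was left out and was at 0.03 when TG-3 was left out with it. *Dnah11* had 0.39 (standard error 1.05), which was 1.43 without WT-3 and -0.41 without TG-2. The unadjusted limma p of *Ccdc153* was 0.106 without and 0.0177 with a block for the replicate number, a pairing taken from these same data. It was also under 0.05 without WT-1, but was 0.374 without WT-3.

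**Figure D4:**
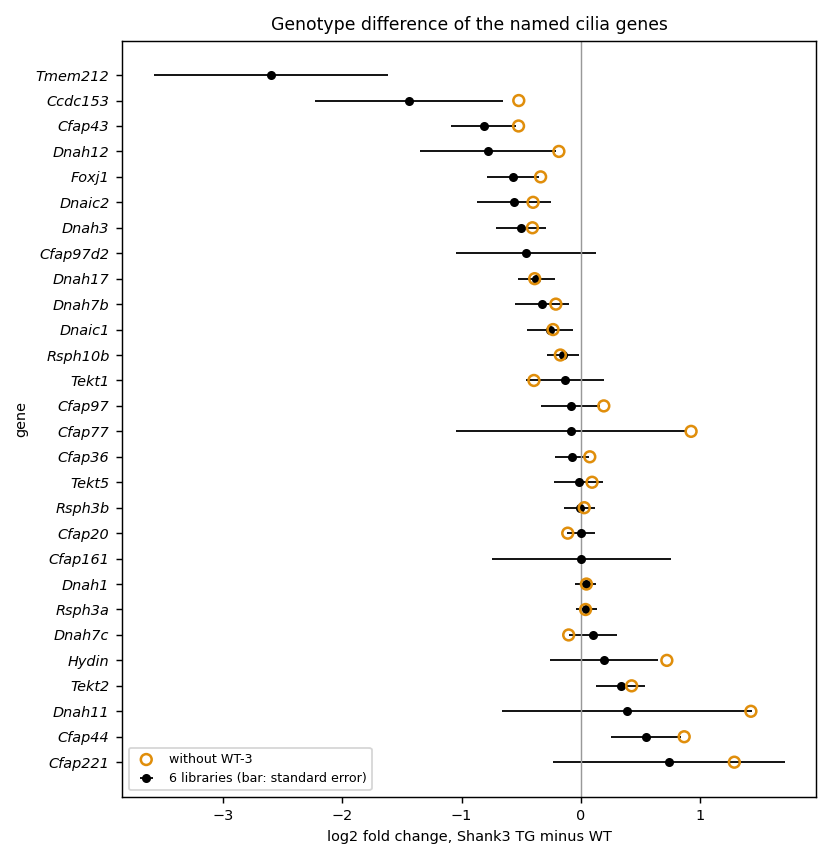
Log2 fold change of *Shank3* TG against WT (horizontal axis) for the 28 named cilia genes (vertical axis), with all 6 libraries (black, bars give the standard error) and without WT-3 (open orange circles). *Tmem212*, *Cfap161* and *Cfap97d2* have no circle because their mean fell under 5 normalized counts without WT-3. *Ccdc153* moves from -1.44 to -0.52 and *Hydin* from 0.20 to 0.72.

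Other gene lists were read in the same libraries. Over all tested genes, the highest library was WT-3 for 23.9%, TG-3 for 17.0% and TG-2 for 12.8%, and WT-3 was the highest by at least 1.5-fold for 1.61%. Of 12 tested ependymal markers outside the 63 genes, WT-3 was the highest library for 10, and by at least 1.5-fold for 3. Their median centred value was 0.61 in WT-3 and between -0.22 and 0.03 in the others. The summed level of the 15 markers in the table was 965 normalized counts in WT-3 and 631 to 812 in the other libraries. *Sntn*, a gene of the ciliary tip that was not tested and is named after its values were seen, had 0, 0 and 2.19 in *Shank3* TG and 0, 0.983 and 11.4 in WT. *Tm4sf1*, which endothelial cells also express, did not follow, with 286, 276 and 166 against 258, 196 and 254. *Enkur* had 72.8, 76.4 and 94.9 against 52.6, 72.0 and 109. The unadjusted limma p was above 0.05 for all 12 markers.

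Of 48 other axonemal genes tested, WT-3 was the highest for 21 and by at least 1.5-fold for 6, with a median of 0.13 in WT-3. *Dnal1*, an outer arm light chain, was level, with normalized counts of 3434, 3469 and 3515 over the *Shank3* TG libraries and 3205, 3525 and 3458 over the WT libraries. *Tppp3* had 481, 525 and 563 against 566, 515 and 717. Among the 12 tested genes of dynein arm assembly, which build the arms in the cytoplasm, WT-3 was the highest for 5 and TG-3 for 5 (23.9% and 17.0% of all tested genes), with medians of 0.25 and 0.23. *Spag1* showed this, with 271, 298 and 418 against 302, 367 and 499. The 11 multiciliation regulators had WT-3 as the highest for 5, among them *Rfx3*, with 1496, 1530 and 1032 against 1352, 1432 and 1794. *Myb*, chosen after its values were seen, was the only 1 of the 11 regulators with an unadjusted limma p under 0.05 (0.0119, against 1.08% of all tested genes under 0.05 and lower in *Shank3* TG), with 12.8, 11.6 and 8.13 in *Shank3* TG and 24.9, 17.9 and 30.3 in WT. Every *Shank3* TG library was below every WT library for *Myb*, as for *Foxj1* and 3.12% of all tested genes.

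Genes of the primary cilium and of intraflagellar transport, the cargo traffic that all cilia use, did not set WT-3 apart. WT-3 was the highest for 9 of 36, near the 23.9% of all tested genes, and by 1.5-fold for 0, and the medians lay between -0.03 and 0.04 in all 6 libraries. *Kif3a*, a motor subunit of this transport, showed normalized counts of 4290, 4171 and 5473 over the *Shank3* TG libraries and 3906, 4711 and 5742 over the WT libraries, higher in TG-3 and WT-3. *Ift172* had 1944, 2015 and 1793 against 2176, 2156 and 1815.

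Markers of the choroid plexus and of the olfactory bulb gave other orders of the libraries. TG-3 was the highest for 7 of the 11 tested choroid plexus genes, with a median of 0.68 there and 0.20 in WT-3, and the summed level of the 15 genes was 709 normalized counts in TG-3, 386 in WT-3 and 204 to 319 in the others. *Ttr*, the carrier of thyroxine that choroid plexus cells secrete, made up most of the TG-3 sum, with 127, 22.9 and 445 in *Shank3* TG and 14.3, 12.6 and 41.7 in WT, and was the only 1 of the 11 with an unadjusted limma p under 0.05 (0.0382, higher in *Shank3* TG, against 0.933% of all tested genes). The sum of the other 14 genes was 344 in WT-3, 263 in TG-3 and 191 to 229 in the others, an order that *Prlr* decided, with 124 in WT-3 and 19.9 to 45.1 in the other libraries. Without *Prlr* too, the sum was 235 in TG-3, 220.2 in WT-3 and 155 to 208 in the others. TG-3 was still the highest library for 6 of the 10 tested genes other than *Ttr*, and their median was 0.52 in TG-3 and 0.26 in WT-3. *Otx2*, a defining marker named after its values were seen, had 0.633, 0 and 7.49 in *Shank3* TG and 6.12, 0 and 3.14 in WT. TG-2 was the highest for 10 of the 14 olfactory bulb and neuroblast genes, with a median of 0.57 there and 0.24 in WT-3, the second highest, and the sum of the list was 10053 in TG-2, 8775 in WT-3 and 6698 to 8353 in the others. WT-3 thus stood above the other WT libraries for both lists. *Scgn* of this list, named after its values were seen, was at 0 in WT-2 and had 53.3 in TG-2 and 1.20 in WT-3. Astrocyte genes had a median of -0.12 in WT-3 and -0.19 in TG-3, and striatal neuron genes of -0.02 in WT-3. Leptomeningeal genes had medians of 0.12, 0.26 and 0.08 in *Shank3* TG and of -0.08, -0.20 and -0.15 in WT, and for 6 of 12 the unadjusted limma p was under 0.05 with higher values in *Shank3* TG, against 0.933% of all tested genes. The part of the cut of the tissue in the cilia gene values was not tested.

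**Figure D5:**
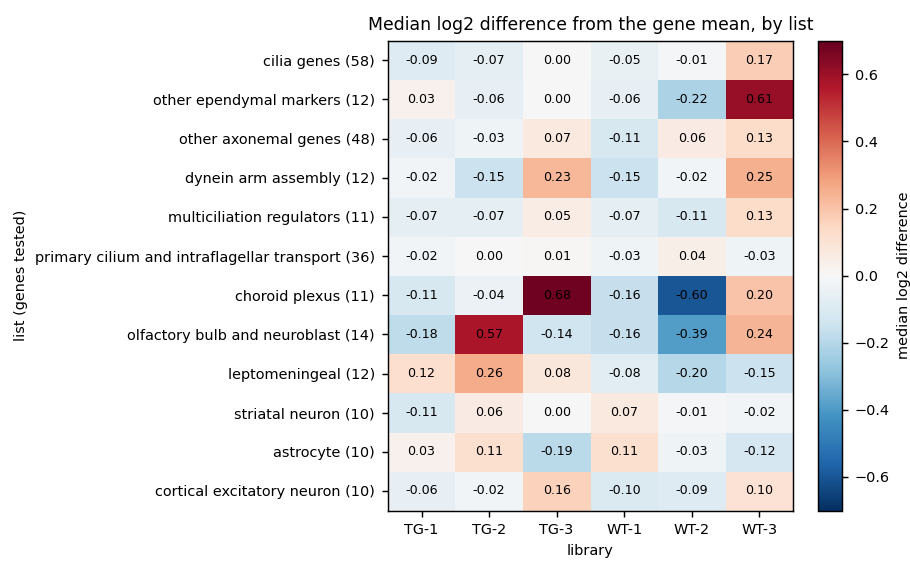
Median centred log2 value (number and colour) of each gene list (rows, with the number of tested genes) in each library (columns). WT-3 has 0.17 for the cilia genes and 0.61 for the other ependymal markers, TG-3 has 0.68 for the choroid plexus genes and TG-2 has 0.57 for the olfactory bulb and neuroblast genes.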

How the data were processed

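The authors made stranded mRNA libraries, estimated transcript abundance with Salmon 0.9.1 on GRCm38 (versions from the submitters' processing notes), summed it to genes and normalized it in DESeq2 1.19.11. The deposited values are this signal, normalized counts that are not whole numbers. At most 41.1% of the values between 0 and 20 in a library lay within 0.05 of a whole step, so reads were not recovered, the DESeq2 model of the study could not be refitted, and no counting interval was computed. The sums of normalized counts, 28363967 to 29447717, were used as depth. A floor of 3 normalized counts was set.

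Gene names, positions and exons came from GENCODE M21 for GRCm38, and promoters from RefSeq. Genes whose mean reached 5 normalized counts were tested with limma 3.58.1 in R 4.3.3 on log2(value + 1), with genotype alone in the model (eBayes with a trend), two-sided, with Benjamini-Hochberg adjustment over all 16714 genes and a threshold of 0.05. Tests compare pools of 2 mice, and with 3 libraries against 3, an exact two-sided permutation p is at least 0.1. Same-numbered libraries deviated together from their genotype means (correlation across genes 0.30, 0.33 and 0.62, at most 0.27 for the other combinations). TG-1 with WT-2 reached 0.27 and TG-2 with WT-1 0.23, so that only the libraries numbered 3 stood well apart. No sample label gives a pairing. The replicate block was therefore taken from these same data and served only as an alternative.

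The genes, lists, tests and alternatives were chosen with earlier results of these data known. Named genes are the 4 single genes, the 3 with the highest mean in each family, the 8 with the smallest p-value, the 8 with the largest ratio of the highest library to the median of the others, and at most 4 of each other list, those with the highest mean, apart from genes said to be chosen later. Of the members, 58 of 63 passed the filter. The alternatives were other pseudocounts, filters and normalizations, other limma settings, the replicate block, an empirical null (z-scores divided by their width) and each library left out.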

Additional observations from a re-analysis of the deposited data

How the results depend on the processing

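The adjusted limma p of every tested cilia gene was above 0.05 under every alternative run. Among all tested genes the number under 0.05 was 0, and 1 with the robust option, 1 with the replicate block and 26 with the empirical null. With single libraries left out it lay between 0 and 1 (1 without WT-3), and it was 1 without both libraries numbered 3. The count of cilia genes with an unadjusted p-value under 0.05 was 5, and 2 at a mean of at least 50 normalized counts, where *Dnah3* and *Tmem212* are not tested and *Dnah17* lost the call (0.951% of all tested genes were called in that direction), and 9 with the empirical null (7 lower and 2 higher in *Shank3* TG, against 3.73% and 3.54% of all tested genes). With single libraries left out it lay between 1 and 5. It was 1 without TG-2, 2 without TG-1, 3 without each of TG-3, WT-2 and WT-3, and 3 without both libraries numbered 3. With libraries left out, the genes called were all lower in *Shank3* TG, except that without WT-3, and without both libraries numbered 3, 1 was lower and 2 were higher. With the replicate block it was 6, where *Ccdc153* was added (2.66% of all tested genes were called in that direction), and the block changed no other call of a cilia gene. The number of cilia genes with WT-3 as the highest library was 26, and 13 at a mean of at least 50, where fewer genes are tested. It was 23 with quantile normalization, 26 with upper quartile scaling and 29 with no filter. The median log2 fold change of the tested cilia genes ranged from -0.09 without WT-1 to 0.04 without WT-3, and was -0.016 without both libraries numbered 3.

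The log2 fold change kept its direction under every alternative that gave a value for 16 of the 28 named cilia genes. For *Cfap161* it was 0.0071 in the fit with all libraries, -0.084 with a pseudocount of 5 and -0.0038 with quantile normalization. With libraries left out it ranged from -0.58 to 0.28 for *Cfap161*, from -0.092 to 0.72 for *Hydin*, from -0.10 to 0.29 for *Dnah7c*, from -0.20 to 0.077 for *Cfap36* and from -0.28 to 0.19 for *Cfap97*. It ranged from -0.11 to 0.068 for *Cfap20*, from -0.19 to 0.18 for *Tekt5*, from -0.47 to 0.076 for *Tekt1*, from -0.13 to 0.074 for *Rsph3b*, from -0.97 to 0.93 for *Cfap77*, from -0.43 to 1.59 for *Dnah11* and from -0.15 to 1.53 for *Cfap221*. *Tmem212*, *Cfap161* and *Cfap97d2* fell under the filter without WT-3, and genes with few normalized counts limit what these libraries can show.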
